A study of Mus musculus with 6 samples.

Results

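The genes described here are 54 enzymes, subunits and readers that write, erase or bind DNA methylation and histone marks. They were listed by the function of their products, and a member was kept where its normalized read count was at least 10 in at least 3 libraries. All 54 listed members passed, out of 11296 genes that did so among 14744 in the table. RNA was sequenced from follicular helper T (Tfh) cells, which direct B cell selection within germinal centers, to ask how the loss of the transcriptional repressor Bach2 alters them. They came from mesenteric lymph nodes (MLNs) by sorting on CD4, CD44, PD-1 and CXCR5 without B220, and gave 6 libraries. The paper puts the total sorted at 10000 to 30000 cells and does not say whether this is the number for each library. The WT group has 3 libraries, and the paper uses that name for littermates that carry Cd4-Cre. The second group, labelled Bach2-cKO, has 3 libraries from Bach2 fl/fl Cd4-Cre mice. All mice were on the C57BL/6J background. They were 2 to 3 months old by the legend that covers the RNA sequencing in the paper. Cd4-Cre acts in the T cell lineage from the thymus on, so that the deletion is meant to precede the step to Tfh cells. The labels do not say whether the samples of a group are separate animals, so p-values here measure the spread between samples, which may be partly technical.

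DNA methyltransferases place methyl groups on cytosines of CpG dinucleotides, and TET enzymes oxidize them. Histone methyltransferases, acetyltransferases and the enzymes that remove these marks act on histone tails, where H3K27 methylation by Polycomb repressive complex 2 (PRC2) and H3K9 methylation go with silent genes and H3K4 methylation and acetylation with active ones. In CD4+ T cells such enzymes are known for their part in fixing helper fates, with Ezh2, menin and Tet2 among those studied in Tfh cells.

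The values are read counts per gene divided by a size factor of each library, called normalized read counts below, and are given in the order of replicates 1, 2 and 3. They sum to between 7361229 and 8135325 per library. Between 5045131 and 10987752 reads were recovered for 5 of the libraries, and none were taken for WT replicate 1, whose step was too near 1. WT replicate 1 also had fewer genes above 0, 11648 against 13111 to 13567 elsewhere. The deleted gene was examined first. Bach2 was at 233, 222 and 105 normalized read counts in the WT libraries and at 399, 763 and 591 in those labelled Bach2-cKO. The label would have these lower, yet each exceeded the highest WT library, and each direction given here is that of the label only. Gene counts include exons outside the deleted ones, so that deletion itself could not be checked. Foxp3, which the authors name among transcripts lower without Bach2, was lower in each library so labelled, with values beside the regulatory T cell genes below. The authors' statement rests on the same RNA sequencing with the same labels, so it is no separate check of the labels. The gated markers were present in all 6 libraries. Cd44 was at 1090, 1776 and 1741 normalized read counts in WT and at 3856, 2615 and 2313 in the others, and Cd4 at 2500, 2407 and 2792 and 4131, 3341 and 3349, both higher without overlap. Cd3e, a subunit of the T cell receptor complex, was at 10623, 9648 and 11924 in WT and at 4534, 5238 and 6140 in the others, and Icos, a costimulatory receptor of Tfh cells, at 2547, 4079 and 4953 and 1675, 1440 and 2511 likewise, both lower without overlap. The 14 Tfh and CD4 T cell genes, led by Sh2d1a, summed to 38617, 41188 and 54169 in WT and to 43002, 33501 and 39824 in the others, with a median log2 fold change of 0.09. Of these, 4 were higher (Cd4, Cd44, Bcl6 and Tox2) and 3 lower (Cd3e, Icos and Batf) without overlap, against 14.6% and 12.2% of all genes. The part of such differences in the members' values was not tested. Cxcr5 was between 1271 and 2207 and Pdcd1, the gene of PD-1, between 1462 and 2708 normalized read counts.

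Most of the chromatin genes had higher values in the libraries labelled Bach2-cKO. The log2 fold change was above 0 for 49 of the 54 members, against 6185 of the 11296 genes tested. Its median was 0.66 over the members and 0.08 over all genes tested. The highest members were Setd1b, Kdm6a, Brd2, Kdm2a and Tet3, between 1.27 and 1.32, and the lowest were Men1, Eed, Hdac3, Dnmt3b and Kdm4a, the 5 members below 0. No member passed an adjusted p under 0.01 with a change of more than 2-fold in limma, and neither did any other gene (0% of those tested); the smallest adjusted p was 0.141. Taken without adjustment, p was under 0.05 for 25 members with higher values, or 46.3%, against 10.1% of all genes, and for 2 with lower values, Eed and Men1, against 10.2%. The 3 libraries labelled Bach2-cKO all lay above the 3 WT libraries for 24 members, or 44.4%, against 14.6% of all genes, and all lay below them for 2 members, Eed and Hdac3, against 12.2%. Two-sided exact permutation of 3 libraries against 3 cannot give a p under 0.1. In bulk RNA, more cells that carry a transcript and more of it in each cell cannot be told apart.

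**Figure D1:**
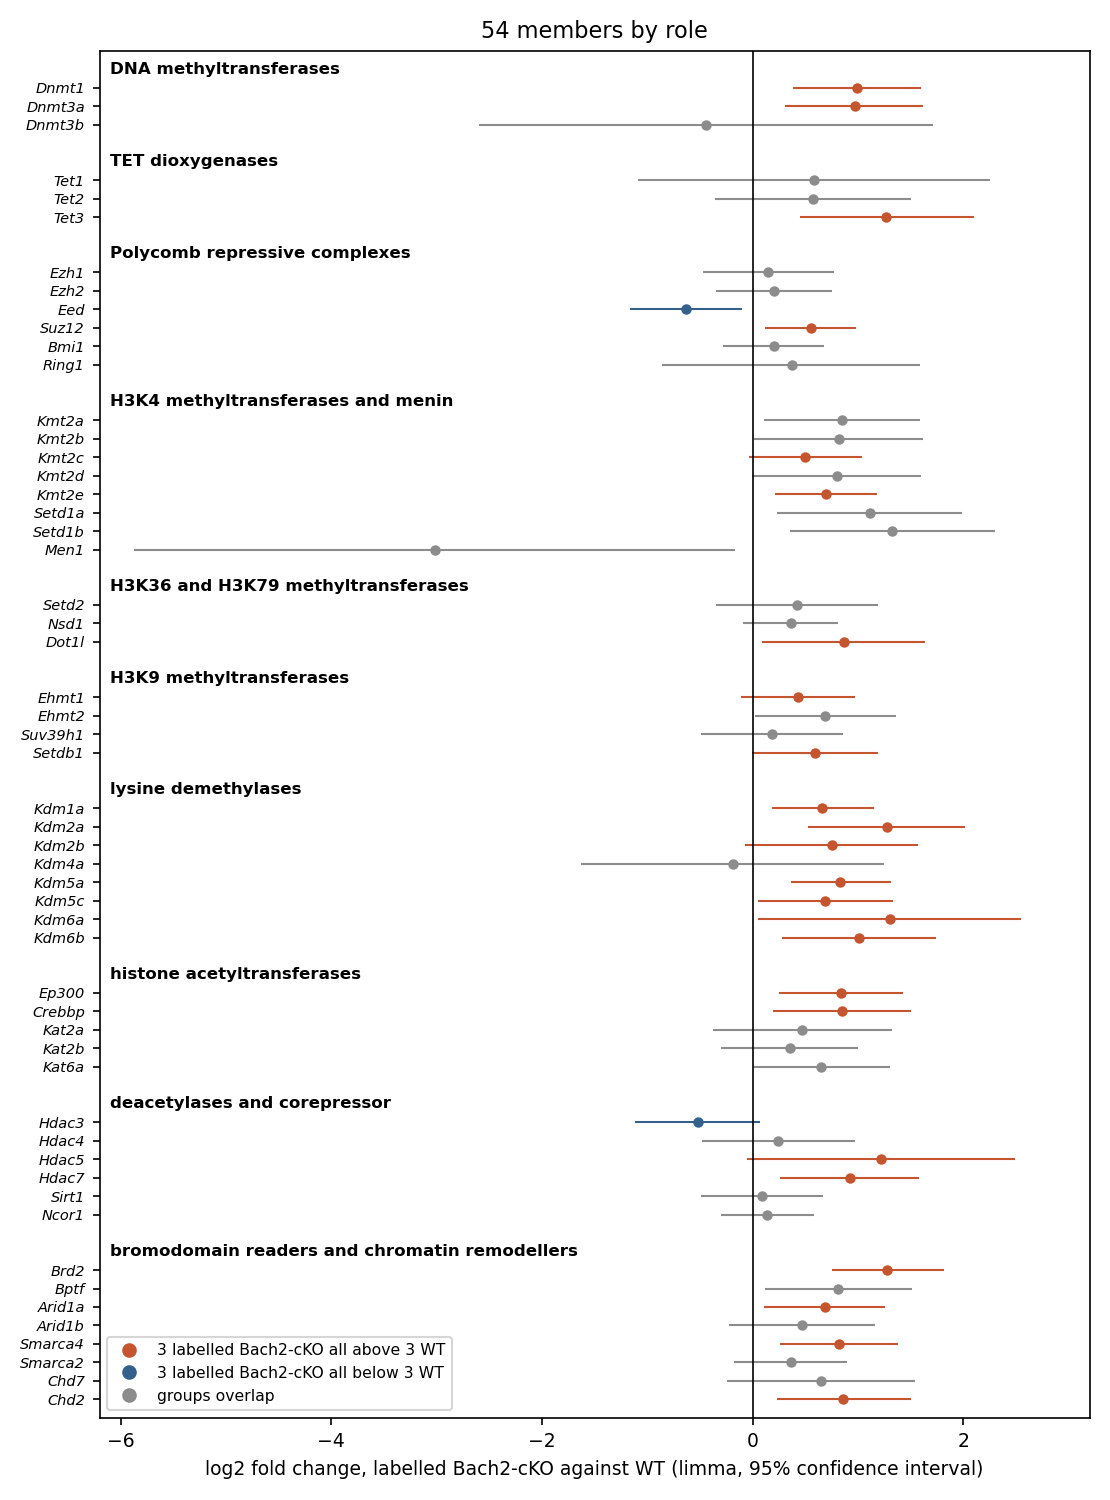
log2 fold change of each of the 54 members (points) with its 95% confidence interval (lines) from limma on 3 libraries labelled Bach2-cKO against 3 WT libraries, grouped by role. Color marks the 24 members whose groups did not overlap with higher values and the 2 with lower values; 49 points lie to the right of 0, and Men1 has the widest interval.

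These counts stand beside a trend over all genes. Of the 54 members, 37 (68.5%) fall in the 2 longest of 10 equal bins of transcript length, where the longest transcript has at least 5126 nt, and the median length of the members was 6.47 kb, against 3.27 kb over all genes tested. The median log2 fold change of all genes was lowest at -0.32, in the second bin (1262 to 1845 nt), and highest at 0.46, in both of the longest bins. Members in these 2 bins had a median of 0.81, and the 17 in the other 8 bins a median of 0.20, against -0.02 for all genes there. In the 2 longest bins 21 of 37 members (56.8%) were higher at an unadjusted p under 0.05, where all genes of the bins gave 19.2%. Within its own bin, the log2 fold change was above the bin's median for 41 of the 54 members, by 0.25 at the median of the members.

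With a smooth trend in length taken off each library, the median of the members was 0.23 and that of all genes -0.05. At an unadjusted p under 0.05 there were then 5 members higher, against 5.46% of all genes, and 1 lower, Men1, against 11.9%. Over all genes this moved the split from 1144 higher and 1157 lower to 610 and 1329. The 5 members were Dnmt1, Tet3, Kdm1a, Kdm2a and Brd2, all at an adjusted p of 0.155 or more. Under this correction the groups did not overlap for 9 members with higher values, or 16.7%, against 9.46% of all genes, and for 3 with lower values, Eed, Hdac3 and Ncor1, against 14.1%. The log2 fold change was above 0 for 40 members after it, in place of 49, against 5284 of 11179 genes. It turned below 0 for Ezh1, Setd2, Nsd1, Ehmt1, Hdac4, Sirt1, Ncor1, Arid1b and Smarca2. For genes given with a limma adjusted p below, the value after this correction stands in the same brackets, as length removed. With a trend in GC content taken off as well, the median of the members was 0.11 and that of all genes -0.04. Of the members described with every library, those left between 0 and 0.17 were then Kmt2d (0.00), Dot1l (0.01), Kdm5c (0.02), Smarca4 (0.03), Tet2 (0.09), Kdm6b (0.11), Hdac7 (0.12), Crebbp (0.15) and Ep300 (0.17), and Arid1a (-0.20) and Ncor1 (-0.42) turned below 0. Eed (-0.42), Hdac3 (-0.59) and Men1 (-3.36) stayed below 0. How much of the members' difference goes with length and how much with their function was not tested beyond these values.

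**Figure D2:**
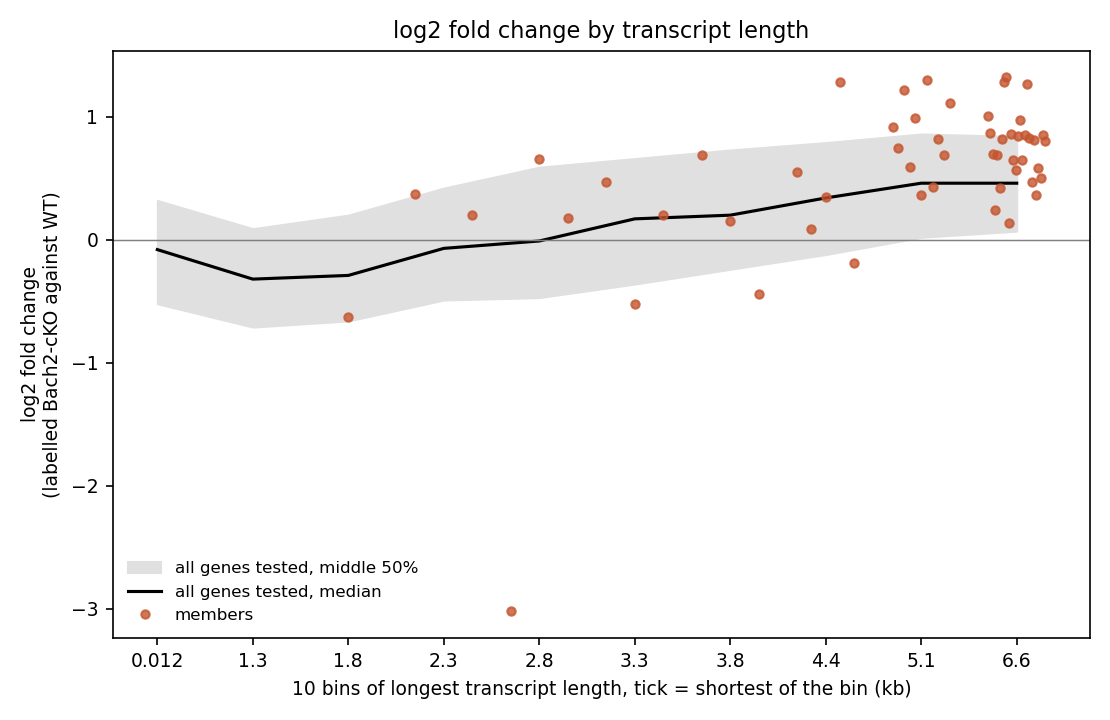
log2 fold change (vertical axis) in 10 bins of the length of the longest transcript (horizontal axis, labelled by the shortest length of each bin in kb). The black line is the median of all genes tested and the grey band their middle 50%; points are the 54 members, set side by side within a bin, of which 26 lie in the longest bin and 41 above the line of their bin.

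The 6 libraries did not contribute alike. As the deviation from each gene's mean over the libraries, on the log2 scale, the median of the members was -0.48, -0.16 and -0.27 in the WT libraries and 0.50, 0.40 and -0.02 in those labelled Bach2-cKO. The 2196 other genes of the 2 longest bins had medians of -0.46, 0.02 and -0.11 and of 0.38, 0.28 and 0.04. WT replicate 1 was thus lowest and Bach2-cKO replicate 1 highest for both sets, and Bach2-cKO replicate 3 lay nearest to the WT libraries. Of the 54 members, 36 had the highest value of their group in Bach2-cKO replicate 1 and 40 the lowest in Bach2-cKO replicate 3. Without Bach2-cKO replicate 1 there were 10 members higher at an unadjusted p under 0.05, against 4.14% of all genes, and without Bach2-cKO replicate 2 there were 12, against 4.74%, in place of 25. The share of all genes was thus smaller as well. Without Bach2-cKO replicate 3 the groups did not overlap for 37 members with higher values, against 27.2% of all genes, in place of 24. With the length trend removed, the medians of the members were 0.12, -0.19 and -0.18 in WT and 0.20, 0.10 and -0.01 in the others, so that WT replicate 1 lay among the libraries labelled Bach2-cKO.

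**Figure D3:**
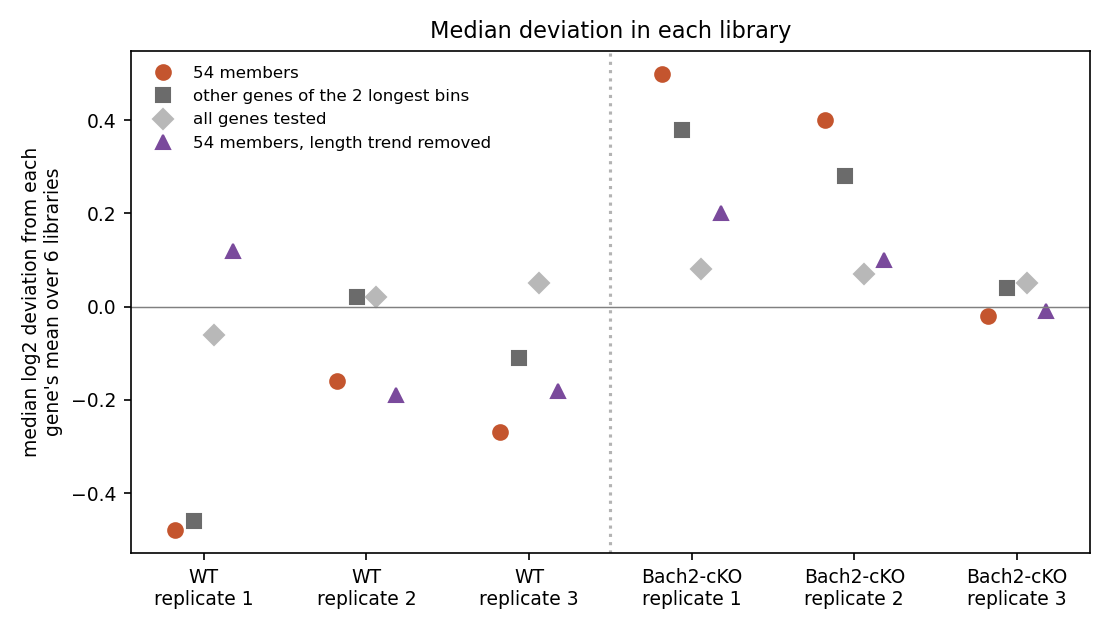
Median log2 deviation from each gene's mean over the 6 libraries (vertical axis) in each library, for the 54 members, for 2196 other genes of the 2 longest length bins, for all genes tested and for the members with the length trend removed. The members run from -0.48 in WT replicate 1 to 0.50 in Bach2-cKO replicate 1, and the other long genes from -0.46 to 0.38 in the same libraries.

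Among the enzymes of DNA methylation, both of the well expressed methyltransferases were higher in the libraries labelled Bach2-cKO. Dnmt1, the maintenance methyltransferase that copies methylation to the new strand after replication, lies on chromosome 9 from 20907209 to 20959888 of GRCm38, the build of all coordinates here. It was at 305, 455 and 507 normalized read counts in WT and at 1077, 727 and 709 in the libraries labelled Bach2-cKO. The groups were well apart, with a mean ± SD (n = 3) of 423 ± 105 against 838 ± 208, and the log2 fold change was 0.99 (limma adjusted p = 0.144, SE 0.27, 95% interval 0.38 to 1.60, 0.54 with length removed), where SE is the standard error and the interval that of confidence. Dnmt3a, which methylates DNA de novo (chromosome 12 from 3806007 to 3914443), was at 244, 206 and 255 in WT and at 602, 504 and 318 in the other group. Its WT libraries were close together and Bach2-cKO replicate 3 was nearest to them, and the log2 fold change was 0.97 (limma adjusted p = 0.152, SE 0.30, 95% interval 0.31 to 1.62, 0.42 with length removed). A noncoding gene on the other strand, Dnmt3aos, overlaps it, and whether reads were assigned by strand is not given in the sources used here. Dnmt3b, the other de novo enzyme, was low and scattered, between 7.28 and 140 normalized read counts, with both extremes in WT libraries.

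Of the 3 TET dioxygenases, Tet3 alone had groups that did not overlap. Tet3 (chromosome 6 from 83362373 to 83459084) was at 155, 435 and 304 normalized read counts in WT and at 789, 745 and 498 in the libraries labelled Bach2-cKO, and the log2 fold change was 1.27 (limma adjusted p = 0.148, SE 0.37, 95% interval 0.45 to 2.10, 0.74 with length removed). Tet2 (chromosome 3 from 133463679 to 133545139) was at 97.9, 315 and 236 in WT and at 315, 320 and 238 in the others. Here WT replicate 1 stood apart from the other 5 libraries, which overlapped, and the log2 fold change of 0.57 (limma adjusted p = 0.435, SE 0.42, 0.03 with length removed) was 0.08 without that library and 0.92 without WT replicate 2. The log2 ratio of Tet3 to Tet2 within each library, which no scaling of a library can move, was 0.66, 0.46 and 0.36 in WT and 1.32, 1.22 and 1.06 in the others. The groups were 0.70 apart with an SD of 0.15 in WT (n = 3), without overlap, and the two-sided exact permutation p was 0.1, the smallest possible. It was 1 of 14 ratios of related members, chosen after the values were seen, of which 3 did not overlap (exact permutation p = 0.467 after Benjamini-Hochberg adjustment over the 14). Tet1 was low, between 12.5 and 73.7 normalized read counts, and overlapped between the groups.

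Subunits of PRC2, the complex that methylates H3K27, did not share a direction. Eed, the subunit that binds the methylated product (chromosome 7 from 89954654 to 89980983), was at 1893, 1150 and 1183 normalized read counts in WT and at 941, 789 and 942 in the libraries labelled Bach2-cKO. All of the latter were lower, with a mean ± SD (n = 3) of 1409 ± 420 against 891 ± 88.4, and the log2 fold change was -0.63 (limma adjusted p = 0.194, SE 0.24, 95% interval -1.16 to -0.10, -0.55 with length removed). It was -0.39 without WT replicate 1, the highest. Suz12, the scaffold of the complex (chromosome 11 from 79993106 to 80034123), went the other way, from 738, 737 and 643 to 1082, 1006 and 1015. Both groups were tight and did not overlap, and the log2 fold change was 0.55 (limma adjusted p = 0.173, SE 0.19, 95% interval 0.12 to 0.98, 0.26 with length removed). Ezh2, the catalytic subunit (chromosome 6 from 47530139 to 47595341), was at 1131, 685 and 846 in WT and at 1106, 799 and 1129 in the others, values that overlapped. The log2 fold change was 0.20 (limma adjusted p = 0.653, SE 0.25, 95% interval -0.35 to 0.75, 0.17 with length removed), between 0.03 (without WT replicate 2) and 0.39 (without WT replicate 1) on leaving out a library.

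Within each library, the log2 ratio of Suz12 to Eed was -1.36, -0.64 and -0.88 in WT and 0.20, 0.35 and 0.11 in the libraries labelled Bach2-cKO. Eed transcripts thus gave more reads than those of Suz12 in every WT library and fewer in every other library. The ratio of Ezh2 to Eed ran likewise, -0.74, -0.75 and -0.48 against 0.23, 0.02 and 0.26. Each had a two-sided exact permutation p = 0.1, the smallest possible (0.467 adjusted over the 14 ratios). The longest transcripts of Eed, Ezh2 and Suz12 measure 2.07 kb, 2.79 kb and 4.37 kb. Ezh1, the other catalytic subunit, and Bmi1 and Ring1 of PRC1, which ubiquitinates H2A, had log2 fold changes between 0.15 and 0.37 (-0.12 to 0.37 with length removed) and overlapping groups.

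Of the 7 genes from the families of H3K4 methyltransferases, 5, namely Kmt2a, Kmt2b, Kmt2e, Setd1a and Setd1b, were higher at an unadjusted p under 0.05, against 10.1% of all genes and 19.2% in the 2 longest bins, and all 7 were above 0. None of these 5 had such a p with the length trend removed. Kmt2e, a relative without known methyltransferase activity (chromosome 5 from 23434441 to 23504235), was at 1057, 1655 and 1409 normalized read counts in WT and at 2447, 1984 and 2157 in the libraries labelled Bach2-cKO, and the log2 fold change was 0.70 (limma adjusted p = 0.156, SE 0.22, 0.18 with length removed). The groups did not overlap for Kmt2e and Kmt2c. Kmt2d, which marks enhancers (chromosome 15 from 98831669 to 98871204), has the longest transcript of the members, 19.8 kb. It was at 144, 249 and 169 in WT and at 435, 369 and 200 in the others. Replicate 3 labelled Bach2-cKO fell within the WT range, and the log2 fold change was 0.80 (limma adjusted p = 0.249, SE 0.36, 0.42 with length removed). Setd1b had the highest log2 fold change of the members, 1.32 (0.78 with length removed), with overlapping groups. Setd1a was at 1.11 (0.63 with length removed), likewise with overlap.

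Menin, encoded by Men1 (chromosome 19 from 6334979 to 6340891), is a cofactor of the Kmt2a and Kmt2b complexes and lay at the opposite end. Men1 was at 61.6, 23.6 and 15.6 normalized read counts in WT and at 1.48, 0 and 18.4 in the libraries labelled Bach2-cKO. Replicates 1 and 2 labelled Bach2-cKO held 1 and 0 reads, where 3 reads would be 4.43 and 2.01 normalized read counts, while replicate 3 held 18 reads and lay above WT replicate 3. The groups therefore overlapped, and counting error is large at this depth. The log2 fold change was -3.02 (limma adjusted p = 0.226, SE 1.28, 95% interval -5.87 to -0.17, -3.08 with length removed). It was -1.90 with a pseudocount of 5 and -3.44 with a pseudocount of 0.5, so its size rests on the pseudocount.

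**Figure D4:**
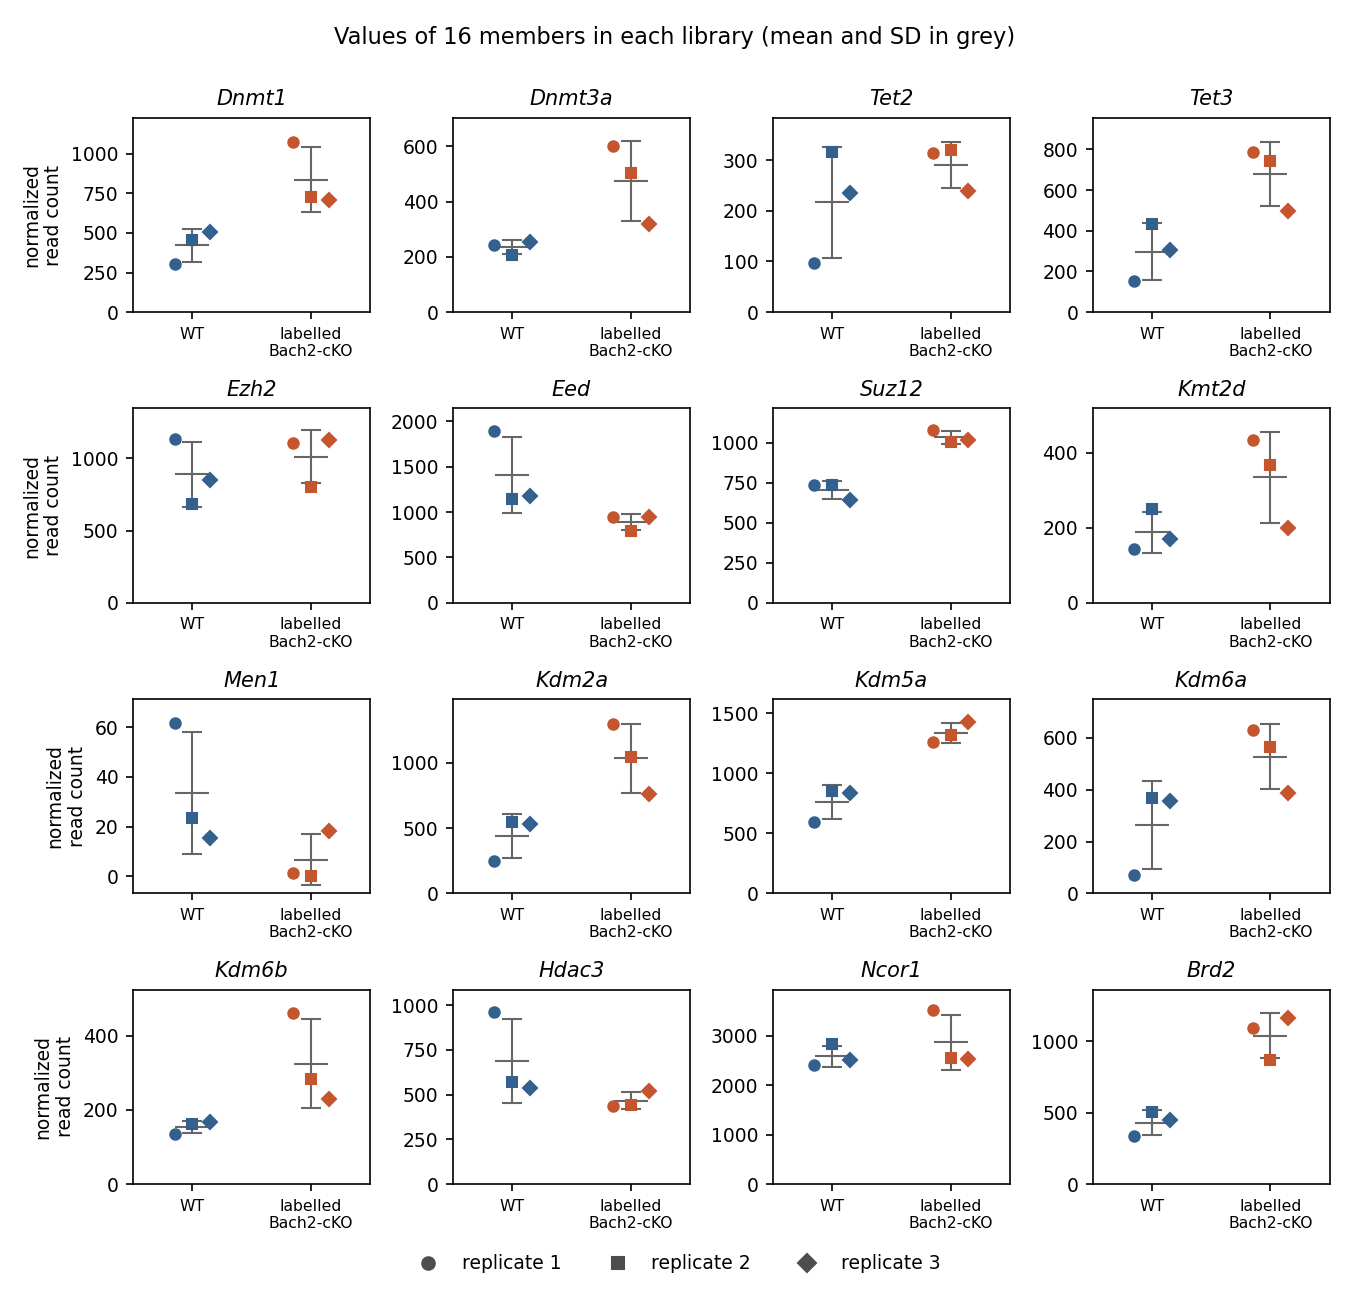
Normalized read counts (vertical axes, each from 0 or just below) of 16 members in the 3 WT libraries and the 3 libraries labelled Bach2-cKO; symbols mark replicates 1, 2 and 3, and grey lines the mean and SD of each group. Brd2, Kdm2a, Kdm5a, Dnmt1 and Suz12 show groups that lie apart, Eed and Hdac3 lie apart in the other direction, and Tet2, Ezh2, Kmt2d, Men1 and Ncor1 overlap.

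Among the methyltransferases of other histone residues, all 7 were above 0, against 6185 of 11296 genes. With the length trend removed 4 were so, against 5284 of 11179 genes. Dot1l, the H3K79 methyltransferase (chromosome 10 from 80755206 to 80795461), was at 165, 206 and 161 normalized read counts in WT and at 495, 324 and 210 in the libraries labelled Bach2-cKO. Replicate 3 of these was just above the highest WT library, and the log2 fold change was 0.87 (limma adjusted p = 0.207, SE 0.35, 0.37 with length removed). It was 0.56 without Bach2-cKO replicate 1, the highest. The H3K36 enzymes Setd2 and Nsd1 overlapped, with 0.42 and 0.36, and with -0.12 and -0.15 after length was removed. Of the H3K9 enzymes, Ehmt1 and Setdb1 had groups that did not overlap and Ehmt2 and Suv39h1 had groups that did, with log2 fold changes between 0.18 and 0.69, and between -0.02 and 0.45 after length was removed.

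The lysine demethylases were the role with the largest share of groups that did not overlap, 7 of 8, all higher in the libraries labelled Bach2-cKO, against 14.6% of all genes, and 6 of 8 had an unadjusted p under 0.05, against 10.1%. With the length trend removed, the groups did not overlap for 3 of them (Kdm1a, Kdm2a and Kdm6b), against 9.46% of all genes, and 2 (Kdm1a and Kdm2a) had such a p, against 5.46%. Kdm2a, an H3K36 demethylase that binds unmethylated CpG (chromosome 19 from 4314419 to 4398285), was at 248, 547 and 529 normalized read counts in WT and at 1295, 1047 and 762 in the others. Each of these was above the highest WT library, with a mean ± SD (n = 3) of 442 ± 168 against 1035 ± 267, and the log2 fold change was 1.28 (limma adjusted p = 0.141, SE 0.34, 95% interval 0.53 to 2.02, 0.74 with length removed). Kdm5a, which removes H3K4 methylation (chromosome 6 from 120364124 to 120444574), was at 594, 855 and 835 in WT and at 1265, 1323 and 1430 in the others, and was 1 of 6 members whose highest value of that group was in replicate 3. Its log2 fold change was 0.83 (limma adjusted p = 0.141, SE 0.21, 95% interval 0.36 to 1.31, 0.29 with length removed). Kdm1a, the demethylase LSD1 (chromosome 4 from 136550540 to 136602723), has a transcript of 3.03 kb, short for a member. It was at 529, 498 and 550 in WT and at 1027, 766 and 734 in the others. The WT libraries differed little, and the log2 fold change was 0.66 (limma adjusted p = 0.163, SE 0.22, 0.60 with length removed).

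Kdm6b, an H3K27 demethylase (chromosome 11 from 69398508 to 69413675), was at 135, 160 and 166 normalized read counts in WT and at 460, 284 and 229 in the libraries labelled Bach2-cKO, a fold change of 2.02 without overlap (limma adjusted p = 0.159, log2 fold change 0.52 with length removed). A noncoding gene on the other strand, Kdm6bos, overlaps it. Its X-linked relative Kdm6a (chromosome X from 18162575 to 18279936) was at 69.6, 368 and 356 in WT and at 630, 564 and 387 in the others. The groups did not overlap, but WT replicate 1 was far below the rest, and the log2 fold change of 1.30 (limma adjusted p = 0.232, SE 0.56, 95% interval 0.05 to 2.55, 0.84 with length removed) was 0.51 without it. Kdm5c, an H3K4 demethylase that is also X-linked (chromosome X from 152233020 to 152274535), was at 192, 142 and 180 in WT and at 306, 285 and 236 in the others, and the log2 fold change was 0.69 (limma adjusted p = 0.222, SE 0.29, 0.20 with length removed). All 6 libraries carried Y-linked transcripts. Ddx3y was between 960 and 1646 normalized read counts, and Xist was at 0 in 4 libraries, at 6.7 in Bach2-cKO replicate 2 and at 1.02 in Bach2-cKO replicate 3. The Y-linked relatives of both genes were measured too. Uty, the relative of Kdm6a, was at 258, 554 and 570 in WT and at 420, 554 and 338 in the others, and Kdm5d, that of Kdm5c, at 209, 471 and 421 in WT and at 371, 348 and 429 in the others. Reads shared by such related genes may have been assigned to either or to neither. Kdm2b was also higher without overlap, at 0.75 (0.36 with length removed), and Kdm4a was low and overlapped, at -0.19 (-0.53 with length removed).

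All 5 histone acetyltransferases were above 0, and the related coactivators Ep300 and Crebbp were higher without overlap. Ep300, which acetylates H3K27 at enhancers (chromosome 15 from 81585351 to 81652077), was at 431, 562 and 548 normalized read counts in WT and at 1173, 1007 and 645 in the libraries labelled Bach2-cKO, and the log2 fold change was 0.84 (limma adjusted p = 0.157, SE 0.26, 0.30 with length removed). Crebbp (chromosome 16 from 4081328 to 4213997) was at 471, 942 and 782 in WT and at 1536, 1376 and 955 in the others, and the log2 fold change was 0.85 (limma adjusted p = 0.172, SE 0.29, 0.31 with length removed). It was 0.56 without WT replicate 1, the lowest. In both genes replicate 3 labelled Bach2-cKO was the lowest of its group and lay close above the WT libraries. Their log2 ratio within a library differed by -0.01 between the groups, less than its spread of 0.31 (SD, n = 3) in WT. Kat2a, Kat2b and Kat6a had log2 fold changes between 0.35 and 0.65, with overlap, and between 0.01 and 0.36 after length was removed.

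Deacetylases differed in direction. Hdac3, the class I deacetylase that works in complexes with Ncor1, was at 961, 573 and 537 normalized read counts in WT and at 436, 440 and 521 in the libraries labelled Bach2-cKO. All of the latter were lower, but replicate 3 was close below WT replicate 3. The log2 fold change was -0.52 (limma adjusted p = 0.289, SE 0.27, 95% interval -1.12 to 0.07, -0.69 with length removed). It was -0.26 without WT replicate 1, which was far above the other WT libraries. Ncor1, the corepressor itself (chromosome 11 from 62316426 to 62458541), was at 2404, 2823 and 2515 in WT and at 3513, 2558 and 2538 in the others. The groups overlapped, only replicate 1 labelled Bach2-cKO stood higher, and the log2 fold change of 0.14 (limma adjusted p = 0.703, SE 0.20, 95% interval -0.30 to 0.58, -0.40 with length removed) was -0.02 without that library and 0.22 without Bach2-cKO replicate 3. Of the class IIa enzymes, Hdac7 (chromosome 15 from 97792664 to 97844502) was at 210, 342 and 400 in WT and at 610, 679 and 469 in the others. The groups did not overlap, and the log2 fold change was 0.92 (limma adjusted p = 0.159, SE 0.30, 0.52 with length removed). Hdac5, low at 21.2 to 85.1, was likewise higher without overlap, while Hdac4 and the NAD-dependent deacetylase Sirt1 overlapped, with 0.24 and 0.09, and with -0.29 and -0.21 after length was removed.

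Readers and remodellers held the member with the smallest adjusted p in DESeq2. Brd2, a BET protein that binds acetylated histones (chromosome 17 from 34112023 to 34122634), was at 335, 505 and 450 normalized read counts in WT and at 1092, 868 and 1165 in the libraries labelled Bach2-cKO. Each of these was well above the highest WT library, with a mean ± SD (n = 3) of 430 ± 86.6 against 1042 ± 155. The log2 fold change was 1.28 (limma adjusted p = 0.141, SE 0.24, 95% interval 0.75 to 1.82, 0.95 with length removed). H2-DMa lies on the other strand over part of Brd2, and where they overlap, whether reads were told apart by strand is not given. Smarca4, the ATPase BRG1 of BAF complexes (chromosome 9 from 21616169 to 21704230), was at 438, 380 and 268 in WT and at 665, 578 and 636 in the others, without overlap, and the log2 fold change was 0.82 (limma adjusted p = 0.155, SE 0.25, 0.34 with length removed).

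Arid1a, a DNA-binding BAF subunit (chromosome 4 from 133679008 to 133756769), was at 924, 1126 and 1165 normalized read counts in WT and at 2353, 1803 and 1192 in the libraries labelled Bach2-cKO. Replicate 3 of these was only just above the WT libraries, and the log2 fold change was 0.69 (limma adjusted p = 0.193, SE 0.26, 0.15 with length removed). Chd2, a chromodomain remodeller (chromosome 7 from 73426638 to 73541830), was at 328, 667 and 504 in WT and at 1030, 876 and 736 in the others, without overlap, and the log2 fold change was 0.86 (limma adjusted p = 0.163, SE 0.29, 0.32 with length removed). Several noncoding genes overlap Chd2 on both strands, and such overlap is common, with 30 of the 54 members overlapped by a gene on the other strand and 40 on either strand. The remaining members of this role, Bptf, Arid1b, Smarca2 and Chd7, had log2 fold changes between 0.36 and 0.81 (-0.09 to 0.29 with length removed) and overlapping groups.

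Other tests called some of these members. DESeq2, run on recovered reads of 5 libraries (without WT replicate 1), gave 4 members higher at an adjusted p under 0.05, against 1.66% of all genes, and 0 members lower, against 1.89%. Men1 had no adjusted p there and could not be called, and its log2 fold change was -1.58. The 4 were Brd2 (DESeq2 adjusted p = 0.00532), Setd1a (0.031), Smarca4 (0.0426) and Kdm2a (0.0454). Over the other settings their adjusted p ran from 0.000703 to 0.507 for Brd2, from 0.000734 to 0.757 for Setd1a, from 0.00128 to 0.976 for Smarca4 and from 0.000867 to 0.507 for Kdm2a. Brd2 alone passed an adjusted p under 0.01 with more than 2-fold, where 0.31% of all genes did so with higher values, and its log2 fold change in DESeq2 was 1.09. In edgeR, by its quasi-likelihood test on these 5 libraries, 0 members were called. Limma with a weight for each library passed 7 members with higher values, against 4.97% of all genes, and 1 lower, Men1, against 5.02%. Those weights set WT replicate 1 at 0.206 and Bach2-cKO replicate 2 at 5.54.

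Per kb of the longest transcript, the members' levels spanned a wide range. In WT the highest mean was that of Eed, 682 ± 203 normalized read counts per kb (SD, n = 3), followed by Ezh2 with 318 ± 81.0 and Ncor1 with 286 ± 24.0. Ezh2 and Ncor1 did not differ beyond their spread. In the libraries labelled Bach2-cKO these 3 levels were 431 ± 42.8, 363 ± 66.0 and 318 ± 61.7 per kb (SD, n = 3), closer together. The lowest WT means were 2.1 ± 1.11 for Tet1, 5.19 ± 2.17 for Hdac5, 9.16 ± 3.71 for Kdm4a and 9.46 ± 2.76 for Kmt2d. Which transcript of a gene was used is not known from these counts, so levels per kb are approximate.

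Other chromatin genes of the same families, 136 tested of 141 listed, were counted in the same way. Of these, 31 (22.8%) were higher and 12 lower at an unadjusted p under 0.05, against 10.1% and 10.2% of all genes, 34 (25%) were higher and 14 lower without overlap, against 14.6% and 12.2%, and the median log2 fold change was 0.24. Their median transcript length was 4.57 kb, shorter than that of the members. The 31 readers and remodellers among them, at 6.35 kb, had 41.9% higher at an unadjusted p under 0.05 and 48.4% higher without overlap, shares near those of the members. With the length trend removed there were 8 higher (5.88%) and 14 lower, near the 5.46% and 11.9% of all genes, with a median of -0.02. Among those without overlap, large log2 fold changes above 0 included those of Brpf1, a subunit of acetyltransferase complexes, with 1.62 (1.26 with length removed), Bap1, which removes ubiquitin from H2A, with 1.28 (1.06), and Arid2, a subunit of PBAF, with 1.22 (0.69). The largest below 0, also among those without overlap, were those of the arginine methyltransferase Carm1 (-1.93, -2.09 with length removed, at 2.96 to 55.5 normalized read counts), Rbbp4 (-1.87), Actl6a of BAF complexes (-1.13, -1.05 with length removed) and Gps2 of the complex of Ncor1 and Hdac3 (-0.97). With overlap, Smyd2 was at -1.74 (-1.61 with length removed).

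Rbbp4, a histone-binding subunit that PRC2 shares with deacetylase complexes, was at 4038, 2191 and 3009 normalized read counts in WT and at 467, 671 and 1727 in the libraries labelled Bach2-cKO. Its log2 fold change was -1.87 (limma adjusted p = 0.141, SE 0.42, 95% interval -2.81 to -0.93, -2.21 with length removed). The longest transcript, at 4.66 kb, lies in the eighth bin of length, where the median of all genes was 0.34. The part of length in the value of Rbbp4 was not tested. Its close relative Rbbp7 was at 6566, 4100 and 4859 in WT and at 2270, 1861 and 4130 in the others. Its values overlapped and were lower at the mean as well, and the log2 fold change was -0.97 (limma adjusted p = 0.155, SE 0.30, -0.92 with length removed). How reads common to these 2 genes were assigned was not tested. Gps2 was at 912, 861 and 934 in WT and at 480, 478 and 419 in the others. The libraries within each group were close together, and the log2 fold change was -0.97 (limma adjusted p = 0.141, SE 0.20, 95% interval -1.43 to -0.52, -0.79 with length removed), in a transcript of 1.31 kb.

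Markers of other cells and of division were set beside these results. The 14 proliferation genes, of which Pcna was the most abundant, summed to 31497, 14085 and 21549 normalized read counts in WT and to 16155, 12957 and 19369 in the libraries labelled Bach2-cKO, with a median log2 fold change of -0.59. Of these, 1 was higher and 4 lower at an unadjusted p under 0.05, against 10.1% and 10.2% of all genes. WT replicate 1 was the highest for this list and the lowest for the members' median. The 10 B cell genes, led by Cd79b, summed to 242, 846 and 596 and to 463, 412 and 365. Blk and Cr2 of this list were at 0 in WT replicate 1. The 8 myeloid genes, led by Cst3, summed to 6606, 16226 and 9049 and to 7705, 14876 and 5489, highest in replicate 2 of either group. The 8 CD8 T and NK cell genes, led by Nkg7, summed to 6134, 4851 and 3706 and to 1673, 4803 and 2429. The 6 regulatory T cell genes, led by Ikzf2, summed to 6506, 6940 and 8687 and to 6958, 5898 and 5271. Of these, all 6 were below 0, against 5111 of 11296 genes. By an unadjusted p under 0.05, 2 were lower, against 10.2% of all genes, and 3 were lower without overlap, against 12.2%. Foxp3, the factor that defines regulatory T cells and their follicular form, was at 222, 315 and 344 in WT and at 47.3, 140 and 91.0 in the others. Each of the latter was below the lowest WT library, and the log2 fold change was -1.76 (limma adjusted p = 0.141, SE 0.43, 95% interval -2.71 to -0.81, -1.97 with length removed). The 8 naive T cell genes, led by Tcf7, summed to 12404.6, 13358.5 and 9925.16 in WT and to 15667.7, 16297.5 and 13132.6 in the others. Of these, 5 were above 0 and 3 below, with a median of 0.18. At an unadjusted p under 0.05, 2 were higher and 1 lower, against 10.1% and 10.2% of all genes. Without overlap, 2 were higher and 0 lower, against 14.6% and 12.2%. The part of these cells and of division in the members' values was not tested.

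Promoters were read to see what the members share beyond their function. RefSeq windows of 300 bases on GRCm38.p6, from 250 before to 50 after a start, were at hand for 43 members. CpG dinucleotides, the substrate of the DNA methyltransferases, were counted in the window of each gene that holds the most. The median over members was 33 and the range 11 to 57, against medians of 22 over 8514 tested genes and 8 over 27025 genes in all. Other windows of a member can hold fewer. The members had 62 windows, the tested genes 10860 and all genes 32851, and a gene with more windows has more chances of a high count. The 7 letters TGAGTCA, the core bound by AP-1 and by Bach2 with its Maf partners, were searched on both strands. They were in windows of 5 members, or 11.6%, namely Hdac7, Kat2b, Kdm4a, Kdm5c and Smarca2, against 4.17% of tested genes and 5.95% of all genes. A match is a description of letters and not of binding. The 250 bases before a start are given for Suz12 and Smarca4, which were higher without overlap, and for Men1, the lowest member, with each CG in capitals. They span chr11:79992856-79993105 (+ strand), chr9:21615919-21616168 (+ strand) and chr19:6334729-6334978 (+ strand), hold no annotated exon, and have 37, 25 and 8 CG, respectively. Men1 has 3 windows, and the richest holds 16 CpG in its 300 bases. Dnmt1, also higher without overlap, has such stretches with 7 and 2 CG, and its richest window holds 33. Whether CG content goes with the direction of a member was not tested.
Suz12: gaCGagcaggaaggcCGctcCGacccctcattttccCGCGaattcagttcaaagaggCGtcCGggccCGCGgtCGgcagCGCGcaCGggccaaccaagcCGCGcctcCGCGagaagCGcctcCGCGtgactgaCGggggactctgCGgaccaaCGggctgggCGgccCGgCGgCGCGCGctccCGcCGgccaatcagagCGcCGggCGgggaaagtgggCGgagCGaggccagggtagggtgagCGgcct
Smarca4: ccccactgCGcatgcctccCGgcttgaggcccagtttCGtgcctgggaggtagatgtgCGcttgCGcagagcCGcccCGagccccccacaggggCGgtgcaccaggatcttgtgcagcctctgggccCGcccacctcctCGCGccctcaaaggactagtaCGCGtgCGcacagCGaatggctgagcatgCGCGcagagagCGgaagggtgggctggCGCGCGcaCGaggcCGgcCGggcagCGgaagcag
Men1: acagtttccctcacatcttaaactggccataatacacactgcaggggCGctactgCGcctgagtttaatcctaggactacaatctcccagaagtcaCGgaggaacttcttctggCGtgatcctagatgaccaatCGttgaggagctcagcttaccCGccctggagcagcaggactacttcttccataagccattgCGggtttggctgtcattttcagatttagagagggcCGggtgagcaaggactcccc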

How the data were processed

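The deposited signal is a normalized read count for 14744 genes in 6 libraries. The paper's methods name Tophat2, HTSeq and DESeq2, whereas the submitters' processing notes list STAR 2.5.2b, DESeq, R 3.5.1 and DESeq2 1.20.0; which made the table is not known. Log2(value + 1) was tested with limma 3.58.1 (R 4.3.3, trended variance, Benjamini-Hochberg) on the whole table, over the 11296 genes that reached 10 in 3 or more libraries. Adding 1 before taking logs draws differences at low values toward 0, and a mean of logs can differ in size or direction from the log of the means. In each library 100% of the values were whole multiples of 1 step, within 0.1 of a read. DESeq2 1.42.0 and edgeR 4.0.16 were run on reads recovered from 5 libraries, since the step of WT replicate 1 was too near 1 for the rule on recovered reads; of all genes DESeq2 called 35 higher and 61 lower, edgeR 0. Intervals of limma cover the spread between libraries, and PCR copies were not told apart. Lengths and coordinates are of the longest transcript and the gene in GENCODE M21 (GRCm38); 11179 tested genes had a length. The length trend was a spline with 4 degrees of freedom. Values of every library are given for members with an unadjusted p under 0.05 whose groups do not overlap, and for 9 members listed in the design (Dnmt1, Dnmt3a, Tet2, Ezh2, Men1, Kmt2d, Kdm6b, Ncor1, Hdac3); the ratios were chosen after the values were seen. Members and lists were chosen with earlier results of these data known. The fits of differential expression were tested on simulated data.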

Additional observations from a re-analysis of the deposited data

How the results depend on the processing

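With single libraries left out, 10 to 32 members were higher and 0 to 2 lower at an unadjusted p under 0.05, in place of 25 and 2; 24 to 37 and 2 to 3 did not overlap, in place of 24 and 2. All genes ran from 4.14% to 13.1% and 5.36% to 14% by p, and from 17% to 27.2% and 14% to 23% without overlap. The median of the members ran from 0.54 to 0.74, in place of 0.66, and 0 members and 0 genes passed the thresholds. Library weights gave 39 members higher and 4 lower, against 24.3% and 22.8% of all genes, 8 members past the thresholds, and 561 genes higher and 567 lower. Removing the length trend gave 5 higher and 1 lower, against 5.46% and 11.9%, 9 higher without overlap, against 9.46%, and a median of 0.23. Adding GC content, a setting chosen after seeing the data, gave 4, 1, 7 and 0.11, against 5.12%, 9.84% and 8.88%. Removing the length trend and WT replicate 1 together, also chosen then, gave 10 higher and 0 lower, against 8.46% and 9.35%, 21 higher and 7 lower without overlap, against 19.2% and 18.2% of all genes, and a median of 0.28. DESeq2 on 5 libraries gave 0 members lower at an unadjusted p under 0.05, against 9.45%, 1 member past the thresholds, and 35 genes higher and 61 lower; edgeR gave 0 members lower, against 8.77%. A mean of at least 50 and a fit without variance trend each gave 1 lower, against 12.1% and 7.83%. The cause of these shifts was not tested.

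The replicate block gave 24 members higher and 1 lower, against 9% and 9.15%, a median of 0.66 and 0 genes past the thresholds. Libraries of the same number correlated at -0.0689, 0.116 and -0.0386 for replicates 1, 2 and 3, against at most 0.117, 0.0506 and 0.0603 with another number.

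Of 519 values of 26 named members under the alternatives, 508 kept their direction and their side of the thresholds, 5 passed them, and 6 changed direction. Arid1a was at -0.20 with length and GC removed, Tet2 at -0.24 with length and WT replicate 1 removed, and Ncor1 at -0.40, -0.42 and -0.23 with length, with length and GC, and with length and WT replicate 1 removed, and at -0.02 without Bach2-cKO replicate 1, in place of 0.14; among single libraries left out it reached 0.22, and 0.31 with quantile normalization.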
